A study of Drosophila melanogaster with 6 samples.

Results

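The 43 genes described here encode proteins that steer growing axons or hold neural cells together, and they were compared between cultured *Drosophila* S2 cells and a derived line, SIN3 187HA. They were chosen by symbol, as secreted or membrane-bound guidance ligands, their receptors, receptor tyrosine phosphatases, cell adhesion molecules and a few cytoplasmic effectors and trafficking proteins. All 43 symbols were found among the 14540 genes of the RNA-seq table. The series holds 3 biological replicates of S2 cells, the untransfected control, and 3 of SIN3 187HA cells, which are S2 cells with a stably transfected transgene for SIN3 187 carrying an HA tag. A metallothionein promoter, which copper switches on, drives the transgene. Both groups received CuSO4. The sample labels give a dose of 0.07 µM and 48 h of treatment, both only for the first replicate of each group. The paper states the dose in M. SIN3 is the scaffold of a histone deacetylase complex, and SIN3 187 is 1 of the isoforms encoded by *Sin3A*. S2 is a line derived from late embryos with properties of blood cells (hemocytes), so none of these genes was measured in a neuron. The paper reports that the control cells mainly make a larger isoform, whose protein was almost completely lost in the transfected cells. An effect of gaining SIN3 187 and an effect of losing the larger isoform therefore cannot be told apart. The control was the parental culture and not a line transfected in the same way. A difference between the cell lines as such cannot be told apart from either effect.

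Growing axons read cues that other cells secrete or display. Slit, acting through Robo receptors, repels axons from the midline, Netrins attract through Frazzled and repel through Unc-5, and semaphorins signal through plexins. Adhesion molecules of the immunoglobulin, leucine-rich repeat and teneurin families let axons bundle and recognise their targets, and many of these proteins also act outside the nervous system, in muscle, trachea, epithelia and blood cells.

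For each gene the table gives 1 FPKM value per group (mapped fragments scaled for transcript length and library size), which the authors pooled over the 3 replicates. The spread between replicates therefore could not be seen, no test could be made here from 1 value per group, and no value below carries an SD. The authors' own test columns were not used. A gene was counted as higher or lower in SIN3 187HA cells when it had at least 1 FPKM in at least 1 group and differed at least 2-fold on the scale log2(FPKM + 0.1), called the log2 difference below. Folds given in words are ratios of the FPKM values themselves. Across all genes, 8496 passed the minimum of 1 FPKM, and their median log2 difference was -0.03, with quartiles at -0.49 and 0.50. *Sin3A* itself, which checks the labels, had 56.9 FPKM in S2 cells and 2319 FPKM in SIN3 187HA cells. The lowest FPKM steps correspond to about 45.9 M fragments (M, 1000000) over the 3 S2 libraries and 47.6 M over the 3 SIN3 187HA libraries, so that the counting error of most values below is small beside the folds; it says nothing of the spread between cultures.

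Several genes of the set were at higher levels in SIN3 187HA cells. The highest ratios among those with at least 1 FPKM in both groups were 14.9, 12.9 and 12.4. They belonged to the adhesion-related gene *fax*, the receptor *Dscam* and the ligand *sli*, in this order. *Fas3*, *Ten-a*, *Nrt*, *uzip* and *ed* were lower, of which *Fas3* and *Ten-a* were below 1 FPKM in SIN3 187HA cells. Of the 43 members, 31 reached 1 FPKM in at least 1 group. Among these, 12 were at least 2-fold higher, where 14.3% of all 8496 genes were, and 5 were at least 2-fold lower, where 12.8% of all genes were. In percent, 38.7% of the 31 were higher and 16.1% were lower. At a 4-fold limit, 8 members were higher, against 7.05% of all genes, and 2 were lower, against 5.61%. The median log2 difference of the 31 was 0.61. Because *otk* passed the minimum through SIN3 187HA cells alone, and *Fas3* and *Ten-a* through S2 cells alone, these 3 had to differ, and the counts are a description of the 31 genes and not of the whole set. In RNA from whole cultures, fewer cells that express a gene and less RNA per cell cannot be told apart. The summed level of the 43 genes was 691 FPKM in S2 cells and 1259 FPKM in SIN3 187HA cells, and most of the difference came from *fax*, *ena*, *sli* and *Dscam*.

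**Figure D1:**
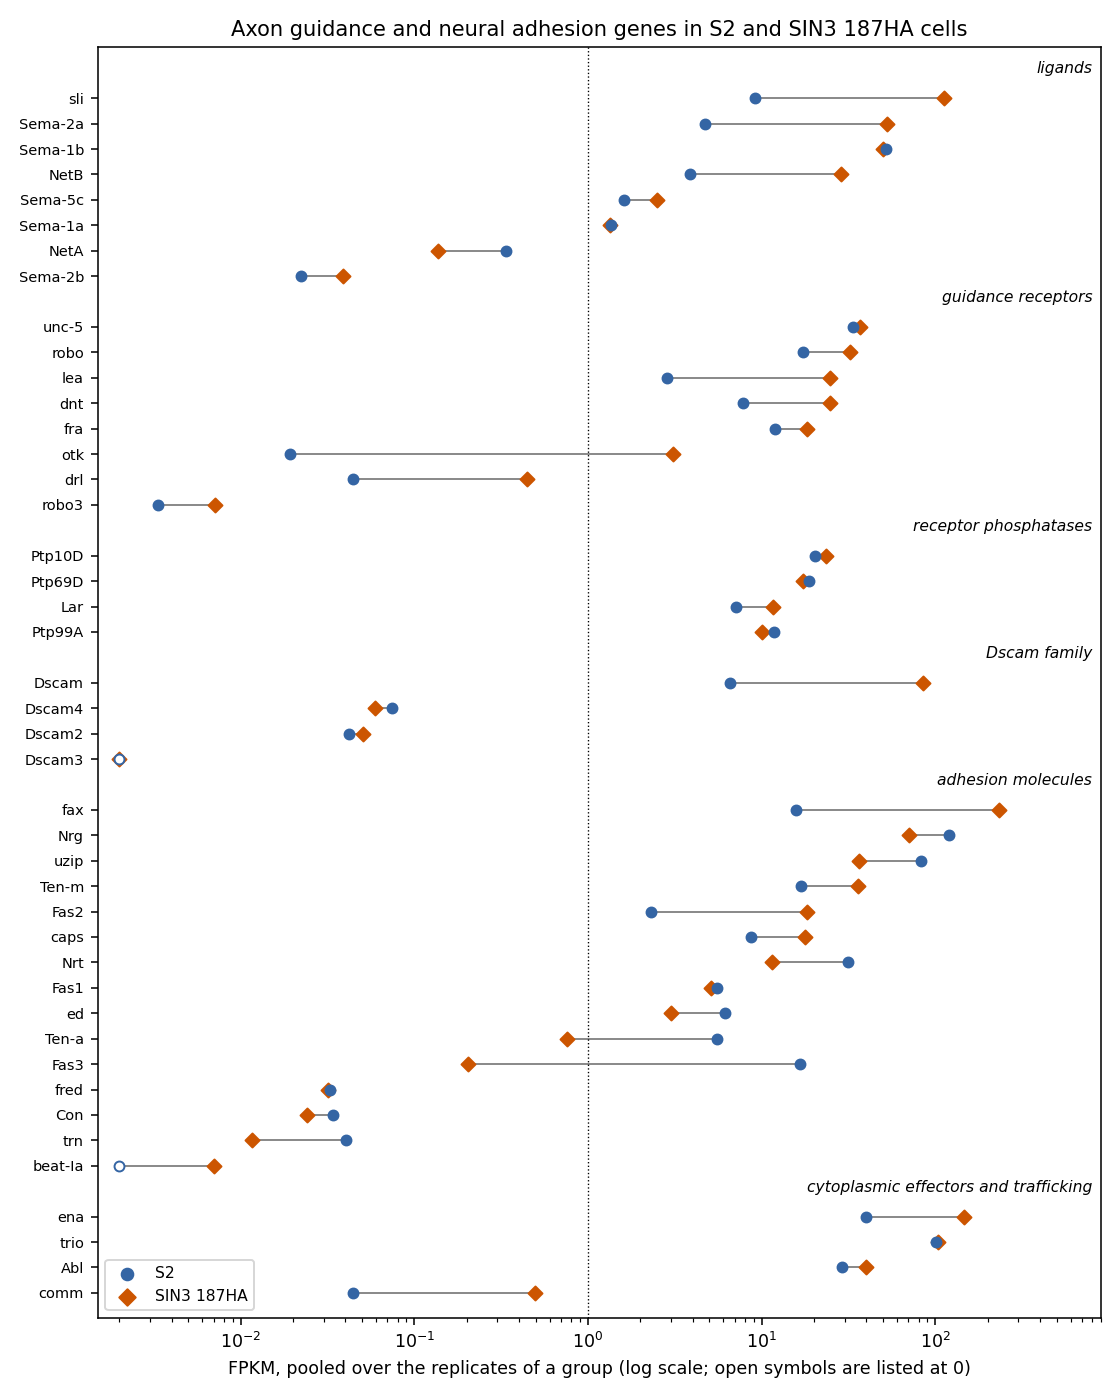
FPKM of each of the 43 genes in S2 cells (circles) and SIN3 187HA cells (diamonds) on a log axis, grouped by role, with a dotted line at 1 FPKM and open symbols for genes listed at 0. The longest lines to the right belong to *otk*, *fax*, *Dscam*, *sli* and *Sema-2a*, the longest to the left is that of *Fas3*, which went from 16.5 to 0.204 FPKM, and the symbols of the 4 receptor phosphatases lie close together.

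Among the ligands, the 3 that were higher are all secreted. *sli*, which encodes the midline repellent Slit and lies on chromosome 2R of the dm3 genome from 11757559 to 11809623, was listed at 9.09 FPKM in S2 cells and 113 FPKM in SIN3 187HA cells, a 12.4-fold difference (log2 difference 3.62). This took it from the 58.9th to the 94.3rd percentile of all genes in the table. *Sema-2a*, a secreted semaphorin (2R from 12387701 to 12420934), was 11.2-fold higher, with 4.71 FPKM in S2 cells and 52.6 FPKM in SIN3 187HA cells (log2 difference 3.45). *NetB*, 1 of the Netrin genes (X from 14580071 to 14643409), had 3.86 FPKM in S2 cells and 28.5 FPKM in SIN3 187HA cells and was 7.38-fold higher (log2 difference 2.85). The next gene on the chromosome, *NetA*, did not share this difference and was below 1 FPKM in both groups, at 0.337 and 0.138 FPKM.

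The transmembrane semaphorin genes stayed within 2-fold. *Sema-1b* was already abundant in S2 cells and had 51.7 and 50.1 FPKM in the 2 groups, a log2 difference of -0.04. *Sema-1a*, whose product can act as a ligand or a receptor, had 1.36 and 1.35 FPKM, and *Sema-5c* had 1.60 and 2.51 FPKM. *Sema-2b*, the close relative of *Sema-2a*, was nearly undetected, at 0.0223 and 0.0391 FPKM. Of the 8 ligand genes, 3 were therefore higher, 3 stayed within 2-fold, 2 were below the minimum and 0 were lower. Among all genes past the minimum, 14.3% were higher and 12.8% lower.

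The receptor genes split in the same manner, with 3 higher, 3 within 2-fold, 2 below the minimum and 0 lower. The shares among all genes past the minimum were again 14.3% higher and 12.8% lower. Of the 3 higher, *otk* passed the minimum through SIN3 187HA cells alone. *lea*, which encodes the Slit receptor Robo2 and lies on 2L from 1380086 to 1420449, had 2.83 FPKM in S2 cells and 24.7 FPKM in SIN3 187HA cells, an 8.72-fold difference (log2 difference 3.08). *robo*, the founding member of the family, had 17.3 and 32.2 FPKM and remained within the limit at a log2 difference of 0.89. *robo3* was represented by about 1 fragment in S2 cells and about 2 in SIN3 187HA cells over the 3 libraries of each. The genes of the other repulsive and attractive receptors were little different: *unc-5* had 33.5 and 36.7 FPKM, and the row that *fra* shares with *CG30056* had 11.9 and 18.2 FPKM, so that part of this value may belong to the other gene.

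*otk*, which encodes a transmembrane protein with an inactive kinase domain that takes part in plexin and Wnt signalling, had the highest ratio of the set. It lies on 2R from 7888983 to 7907329. Its level was 0.0191 FPKM in S2 cells, which corresponds to about 4 fragments over 3 libraries, and 3.10 FPKM in SIN3 187HA cells, or about 661 fragments for its shorter transcript. The ratio was 162, with a 95% interval of 61.9 to 586 from counting error alone. The Ryk-type Wnt receptor genes *dnt* and *drl* were both at higher values in SIN3 187HA cells, but at different levels: *dnt* had 7.76 and 24.6 FPKM (log2 difference 1.65), whereas *drl* had 0.0445 and 0.444 FPKM and did not reach the minimum. For *drl* about 6 fragments in S2 cells and about 61 in SIN3 187HA cells give a counting interval of the ratio from 4.25 to 27.7.

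The 4 receptor tyrosine phosphatase genes, whose products control axon fasciculation and target choice, were expressed in both groups and none passed 2-fold. *Ptp10D* had 20.4 FPKM in S2 cells and 23.4 FPKM in SIN3 187HA cells, *Ptp69D* had 18.7 and 17.3 FPKM, and *Ptp99A* had 11.8 and 10.1 FPKM. *Lar*, at 7.14 and 11.6 FPKM, differed most among them, with a log2 difference of 0.69. The log2 differences of this class had a median of 0.04.

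Of the *Dscam* family, only *Dscam* itself reached the minimum. Its product is an immunoglobulin-type receptor known for its very large number of splice forms and is also made by hemocytes. Its gene (2R from 3205429 to 3269404) had 6.57 FPKM in S2 cells and 84.6 FPKM in SIN3 187HA cells, a 12.9-fold difference (log2 difference 3.67), and the value is 1 sum over the splice forms. *Dscam2* had 0.0419 and 0.0507 FPKM, *Dscam4* had 0.0744 and 0.0592 FPKM, and *Dscam3* was listed at 0 in both groups.

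Adhesion molecules went in both directions, and all 5 lower members belong to this class. Of its 15 genes, 4 were below the minimum. Among the 11 that passed, 4 were higher, 5 were lower and 2 stayed within 2-fold. Of all genes past the minimum, 14.3% were higher and 12.8% lower. *Fas3* and *Ten-a* passed through S2 cells alone, which fixed their direction. *fax* (failed axon connections), which interacts genetically with the *Abl* kinase gene and lies on 3L from 16395896 to 16404939, had 15.7 FPKM in S2 cells and 234 FPKM in SIN3 187HA cells. With a 14.9-fold difference (log2 difference 3.89) it became the most abundant of the 43 genes, at the 97.4th percentile of the table. *Fas2*, an immunoglobulin-type molecule of axon bundles (X from 4026919 to 4100126), had 2.31 and 18.2 FPKM and was 7.90-fold higher (log2 difference 2.93). *Ten-m*, a teneurin gene, had 16.8 and 35.9 FPKM (log2 difference 1.09), and *caps*, which encodes a leucine-rich repeat protein of target recognition, had 8.72 and 17.7 FPKM (log2 difference 1.01). Both lie close to the 2-fold limit.

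On the other side, *Fas3*, which encodes an immunoglobulin-type homophilic adhesion molecule of neurons and epithelia, had the lowest ratio of SIN3 187HA to S2 cells. It lies on 2L from 18320101 to 18393441, and its 16.5 FPKM in S2 cells compared with 0.204 FPKM in SIN3 187HA cells, where about 22 to 38 fragments remained, depending on the transcript. It was thus 81.1-fold lower (log2 difference -5.77), with a counting interval of 52.4 to 127 for the shorter transcript. *Ten-a*, the other teneurin gene (X from 12022928 to 12229249), had 5.56 and 0.758 FPKM and was 7.34-fold lower (log2 difference -2.72), opposite to *Ten-m*. *Nrt*, which encodes the transmembrane protein Neurotactin, had 31.4 and 11.4 FPKM (log2 difference -1.46). *uzip* had 82.3 and 36.2 FPKM (log2 difference -1.18). *ed*, which encodes Echinoid, had 6.12 and 3.00 FPKM and lay at the limit, with a log2 difference of -1.01 that went to -0.98 when the values were centred on the median of all genes.

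The 3 fasciclin genes, of which *Fas1* belongs to another protein family than *Fas2* and *Fas3*, differed from each other: *Fas2* was higher, *Fas3* was lower, and *Fas1* had 5.55 and 5.10 FPKM. *Nrg*, the fly homologue of the L1 adhesion molecule, was the most abundant member in S2 cells at 119 FPKM and had 70.3 FPKM in SIN3 187HA cells, a log2 difference of -0.76. The other 4 adhesion genes were below 0.05 FPKM in both groups. These were *Con*, *trn*, *fred*, which is the neighbour and relative of *ed*, and *beat-Ia*, which was listed at 0 in S2 cells.

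Of the genes of cytoplasmic effectors and trafficking, *ena*, *Abl* and *trio* were expressed at high levels in both groups, and *comm* was not. *ena*, which encodes an actin regulator and substrate of the Abl kinase, had 39.7 FPKM in S2 cells and 147 FPKM in SIN3 187HA cells, a 3.70-fold difference (log2 difference 1.89). Its locus overlaps 4 other expressed genes, so reads may be shared if the library did not keep strand. The loci of *NetB* and *Nrt* overlap 2 and 1 other expressed genes in the same way, and those of *unc-5*, *Sema-1a*, *Ptp99A* and *trio* overlap 1 each. *Abl* had 29.1 and 40.0 FPKM and *trio* had 100.4 and 103.8 FPKM. *comm*, whose product keeps Robo off the axon surface, was below 1 FPKM in both groups, at 0.0445 FPKM in S2 cells (about 3 to 5 fragments) and 0.492 FPKM in SIN3 187HA cells (about 35 to 54 fragments).

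**Figure D2:**
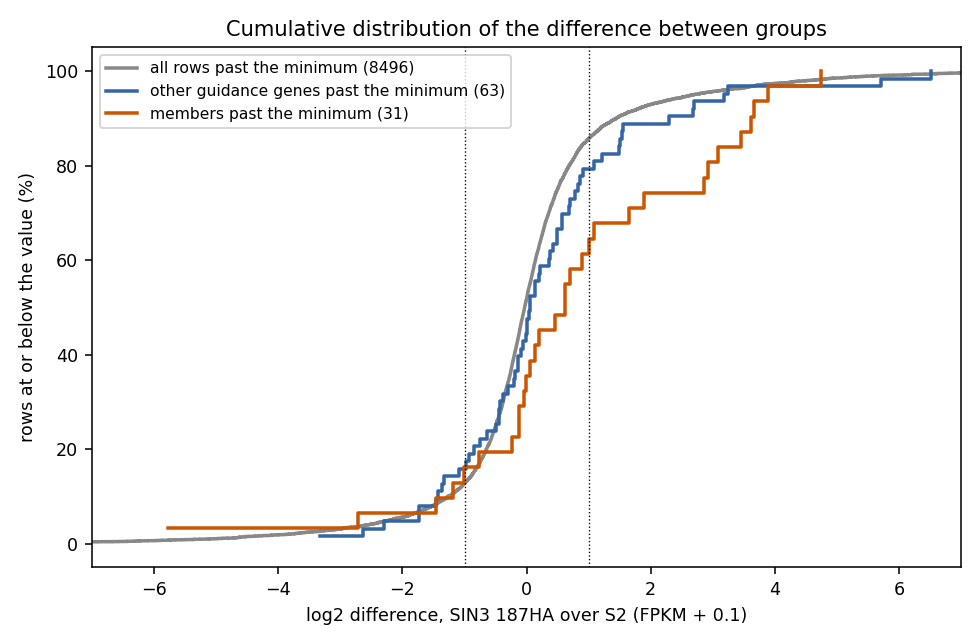
Cumulative share of genes (percent, vertical axis) at or below each log2 difference (horizontal axis) for all 8496 genes past the minimum, for 63 other guidance genes and for the 31 members past it, with dotted lines at 2-fold. The members' curve lies to the right of the others between 0 and 4-fold higher, and 12 of 31 members exceed 2-fold. It ends with *otk* at 4.75, whereas the other guidance genes reach 6.51 with *Ama*. At 2-fold lower or beyond, the members' curve stays near that of all genes.

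The distribution of differences among members was wider on the upper side than that of all genes, and genes of like length and like level were therefore set beside them. The members are long genes: the median locus of the 31 spans 37.8 kb, from 6.62 to 206 kb, against 4.12 kb for all genes past the minimum. Longer loci were more often past the limit in the whole table. Of the 327 genes with loci of at least 50 kb, 26.9% were higher and 22.6% lower, and of the 13 members among them 6 were higher and 3 lower. Of the 717 genes from 20 to 50 kb, 23.3% were higher and 15.1% lower, where 4 and 0 of 9 members were. Of the 2617 genes from 5 to 20 kb, 13.8% were higher and 13.8% lower, and of the 9 members 2 were higher and 2 lower. No member past the minimum had a shorter locus. By level, taken as the mean of the 2 groups, 36.2% of the 1647 genes under 5 FPKM were higher and 22.5% lower, where 1 and 2 of 5 members were. From 5 to 20 FPKM, 11.9% of 2445 genes were higher and 11.7% lower, where 5 and 1 of 11 members were. From 20 to 50 FPKM, 6.76% of 2367 genes were higher and 8.07% lower, where 3 and 1 of 8 members were. At 50 FPKM or more, 8.10% of 2037 genes were higher and 11.6% lower, where 3 and 1 of 7 members were. The members' share of higher genes was thus above that of all genes in the 3 upper level classes and below it in the lowest. The compared values themselves set these level classes. Among the 5 members of the lowest are *otk* and *Ten-a*, which passed the minimum through 1 group alone. Gene length and level were not tested as sources of the members' counts.

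A further 95 genes of axon guidance and neural adhesion were listed, which include plexins, further receptors, integrins and laminins and the actin machinery. Of these, 92 were found and 63 passed the minimum. Of the 63, 13 were higher (20.6%, against 14.3% of all genes) and 10 lower (15.9%, against 12.8%). Their median log2 difference was 0.05, with quartiles at -0.47 and 0.80. At a 4-fold limit 7 of the 63 were higher, against 7.05% of all genes, and 3 were lower, against 5.61%. Some of these passed the minimum through 1 group alone, which fixed their direction. Those with at least 5 FPKM in a group are named here, apart from *Ama*, which is described below. *LanB2*, a laminin chain gene, had 6.25 and 332 FPKM (log2 difference 5.71). *scb* and *if*, which encode integrin alpha subunits, had log2 differences of 2.68 and 2.70, with 39.0 and 5.08 FPKM in SIN3 187HA cells. *Src64B*, a Src kinase gene, had 3.24 and 31.4 FPKM (log2 difference 3.24). On the lower side were *shot*, which links actin to microtubules and had 127 and 25.6 FPKM (log2 difference -2.30), and the row of the integrin gene *mew*, shared with *CG15742*, with 57.3 and 9.10 FPKM (log2 difference -2.64). The 24 nearest expressed genes of *mew* had a median log2 difference of -1.72, with 22 below 0, and *mew* differed from them by -0.92. Beside *Src64B* this median was 1.01, with all 24 above 0, and beside *LanB2* it was 0.76, with 22 above 0. For *scb*, *if* and *shot* it was -0.10, 0.01 and -0.64.

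Whether cues and receptors were present together was examined for 20 pairs of known partners. In S2 cells 12 pairs had both genes at 1 FPKM or more, and in SIN3 187HA cells 12 pairs did, of which 11 were shared. *sli* with *lea* was the single pair with both genes at least 2-fold higher. *robo* beside *sli*, and *fra* and *unc-5* beside *NetB*, stayed within 2-fold. The gene of Plexin B, the receptor of *Sema-2a*, had 78.9 FPKM in S2 cells and 39.9 FPKM in SIN3 187HA cells, a log2 difference of -0.98. *plexA*, whose product binds the class 1 semaphorins, had 88.8 and 26.5 FPKM (log2 difference -1.74), while *Sema-1a* and *Sema-1b* stayed within 2-fold. Both plexin genes lie on chromosome 4, where 70.9% of the 79 genes past the minimum were lower and the median log2 difference was -1.41. The neighbours of *plexA* on this chromosome had a median of -1.37, and *plexA* differed from them by -0.37. For *PlexB*, with 12 neighbours, the median was -1.80, and its own value lay 0.81 above it. No member lies on chromosome 4.

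The pair gained in SIN3 187HA cells was *Ama* with *Nrt*. *Ama* encodes Amalgam, the secreted ligand of Neurotactin. It was represented by about 1 fragment in S2 cells (0.0140 FPKM) and had 10.3 FPKM in SIN3 187HA cells, a log2 difference of 6.51 with a counting interval of the ratio from 112 to 24797 for the shorter transcript. Its receptor gene *Nrt* was lower, as given above, so the levels of *Ama* and *Nrt* in SIN3 187HA cells were near each other, at 10.3 and 11.4 FPKM. The pair lost was that of the teneurins, since *Ten-a* went below 1 FPKM while *Ten-m* was higher. *Wnt5*, the ligand of *drl* and *dnt*, had 16.3 and 29.0 FPKM (log2 difference 0.82). *side*, which encodes the ligand of Beat-Ia, had 0.00414 and 0.00854 FPKM. The *Lar* ligand genes *Sdc* and *dlp*, which encode heparan sulphate proteoglycans, had 54.6 and 73.7 FPKM and 8.58 and 20.1 FPKM.

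**Figure D3:**
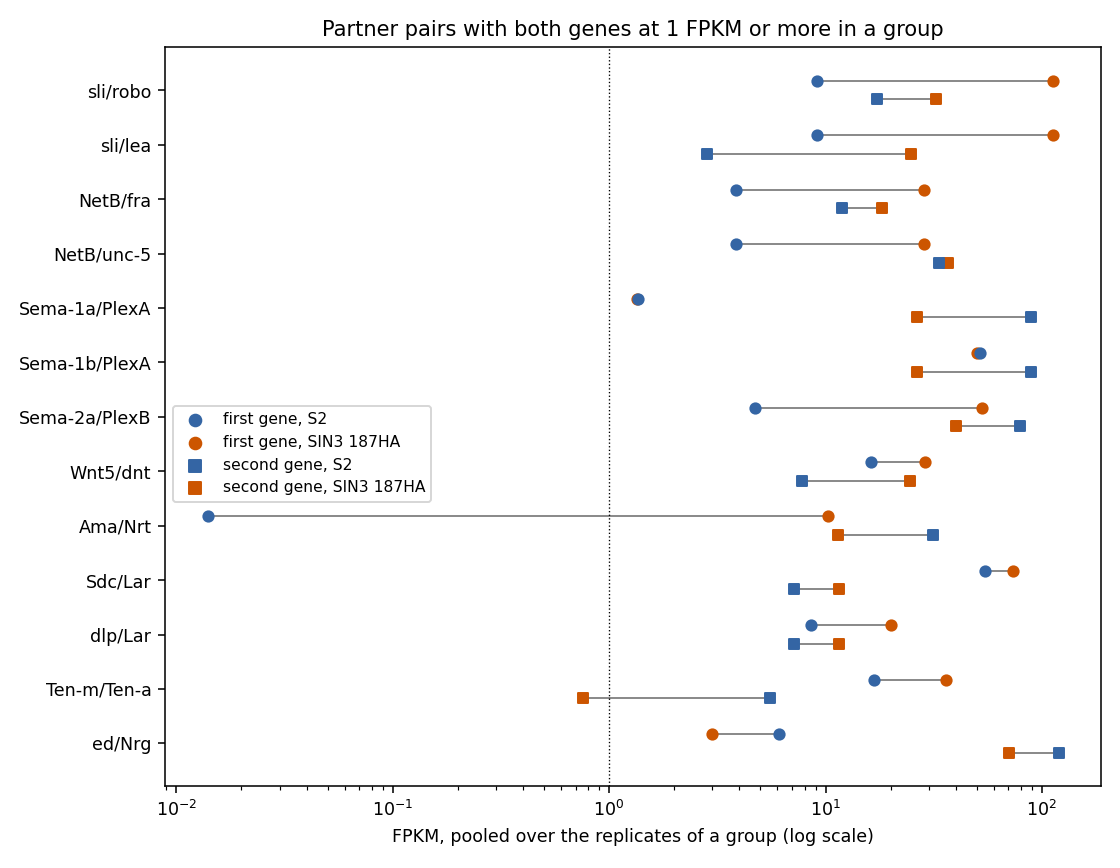
FPKM on a log axis for both genes of the 13 pairs that had each gene at 1 FPKM or more in at least 1 of the groups, with circles for the first gene and squares for the second, blue for S2 and orange for SIN3 187HA. In the *sli*/*lea* pair both genes lie farther right in SIN3 187HA cells, and *Ama* crosses the 1 FPKM line from 0.0140 to 10.3 FPKM.

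Position along the chromosomes was not used to choose the genes, and it was compared because adjacent genes can differ together. For each member the median log2 difference of its nearest expressed genes was taken, 12 on either side, which gave 24 for each member except *uzip* with 15. These medians ranged from -1.04 to 0.74 among the 31 members. Of the 17 members past the 2-fold limit, 7 had neighbours on the same side of 0. Of the 17, 15 differed at least 2-fold from their neighbours in the same direction. Members with neighbours on the other side of 0 had to do so, and only the 7 could have fallen short. *Dscam*, *Sema-2a*, *fax* and *Fas2* stood among neighbours that were slightly lower, with medians of -0.38, -0.37, -0.24 and -0.38, and exceeded them by 4.05, 3.82, 4.13 and 3.31. *Fas3* lay below its neighbours by a log2 difference of -5.45.

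The exceptions were *ed* and *Ten-m*. The neighbours of *ed* had a median of -1.04, with 3 of 24 above 0, and *ed* differed from them by 0.03. For *Ten-m* the median was 0.55, with 22 of 24 above 0, and the difference was 0.54. The neighbours of *otk* were higher as well, with a median of 0.74, and *otk*, with its log2 difference of 4.75, lay far above it. *robo*, within 2-fold between the groups, lay 1.56 above its neighbours, whose median was -0.67. The members were found on every large arm: 5 of the 10 members past the minimum on 2R were higher and 1 was lower, on 3L these counts were 3 and 1 of 8, on 2L they were 2 and 2 of 6, on X they were 2 and 1 of 5, and both members past the minimum on 3R stayed within 2-fold. The shares of all genes that were higher and lower were 13.6% and 12.03% on 2R, 16.99% and 9.69% on 3L, 12.6% and 13.5% on 2L, 16.7% and 12.4% on X, and 12.8% and 12.7% on 3R.

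**Figure D4:**
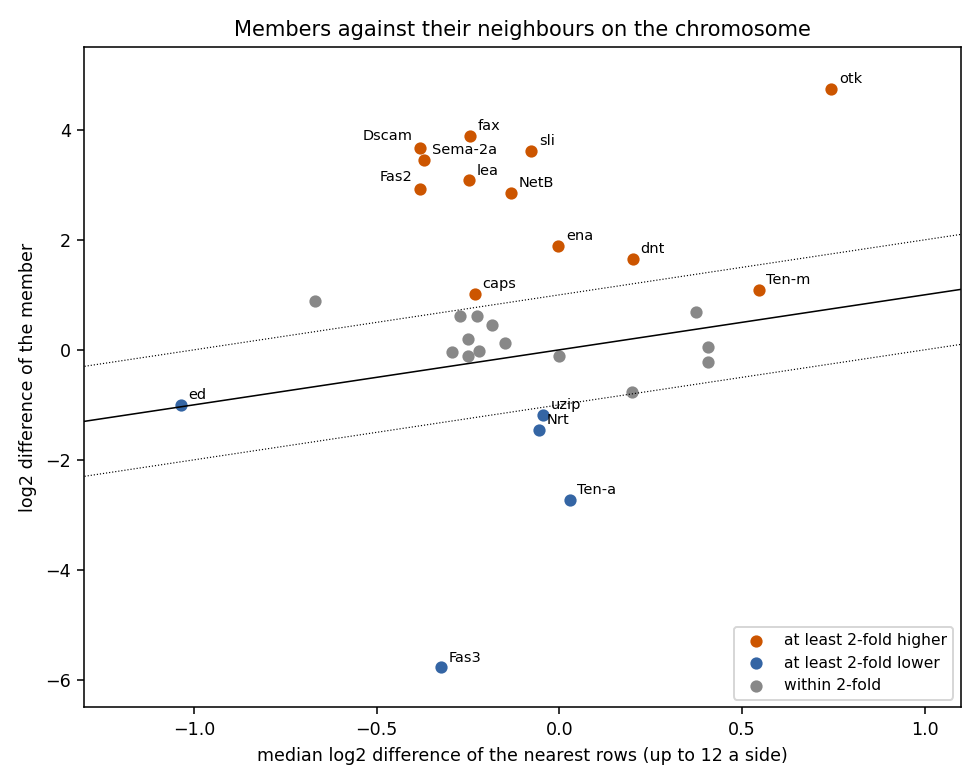
Log2 difference of each of the 31 members past the minimum (vertical axis) against the median log2 difference of its nearest expressed genes, 24 for each member except *uzip* with 15 (horizontal axis), coloured by whether the member was at least 2-fold higher, lower or neither. The solid line marks equal values and the dotted lines 2-fold around it; *ed* and *Ten-m* are the only named genes between the dotted lines.

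Markers of cell types were read beside these values. Of 20 neuronal symbols, which fall on 19 rows because *Cha* and *VAChT* share 1, 4 rows of S2 cells were at 1 FPKM or more and 5 rows of SIN3 187HA cells were, with summed levels of 42.7 and 29.4 FPKM. *elav*, which marks neurons, had 2.39 and 6.74 FPKM, and *brp*, a component of the synaptic active zone, had 0.0647 and 3.06 FPKM. *Appl* and *cpx* were also higher, *unc-13* and *onecut* were lower, and *fne* stayed within 2-fold, whereas the other 12 rows were below 1 FPKM in both groups, *cac* at 0.983 and 0.0275 FPKM and *Syt1*, *nSyb*, *para*, *VGlut* and *Gad1* below 0.5 FPKM. The 24 neighbours of *elav* were all above 0 with a median of 0.88, and the same held for *Appl*. The locus of *elav* overlaps 2 other expressed genes. *unc-13* and *onecut* lie on chromosome 4, and the medians of their neighbours were -1.67 and -1.24. *unc-13* alone held 31.9 and 13.1 FPKM of the neuronal sums. *brp*, *Appl* and *cpx* passed the minimum through SIN3 187HA cells alone and could not have come out lower. In the same way *onecut* passed it through S2 cells alone and could not have come out higher. Of all genes past the minimum, 14.3% were higher and 12.8% lower. Of 6 neuroblast markers only *insc* passed the minimum and was higher, and of 9 glial markers *moody*, *loco*, *Eaat1* and *Gs2* passed it, the last 2 being lower, while *repo*, the defining glial gene, had 0.165 and 0.196 FPKM. Of 8 muscle markers *Mef2* was lower and *Mlc2* stayed within 2-fold, and 0 of 5 fat body markers passed. Of 9 epithelial markers 8 passed the minimum, of which *ovo* was higher and 7 stayed within 2-fold. *ovo* passed it through SIN3 187HA cells alone and *Eaat1* through S2 cells alone, so their direction too was fixed.

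The hemocyte list, which checks the identity of the line, was at lower summed levels in SIN3 187HA cells, with 1395 FPKM in S2 cells and 555 FPKM in SIN3 187HA cells. Most of the S2 sum, and most of the difference, came from *He* alone. Of the 16 genes of the list 12 passed the minimum, and of all genes past it 14.3% were higher and 12.8% lower. *He*, *eater*, *Sr-CI*, *Pxn*, *NimC1* and *Cg25C* were lower, *ush*, *lz* and *Ppn* were higher, and *srp*, *crq* and *vkg* stayed within 2-fold. The row of *ush* is shared with *MED15* and lay near the limit, at a log2 difference of 1.04. *lz* passed the minimum through SIN3 187HA cells alone and could not have come out lower. *srp*, the GATA factor of blood cells, whose row is shared with *CR44133*, had 86.9 and 77.0 FPKM, *He* had 766 and 72.7 FPKM, *eater* had 50.2 and 2.30 FPKM, and *Hml* was below 1 FPKM in both groups. The part that a shift in cell type or state had in the values of the guidance genes was not tested.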

How the data were processed

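RNA-seq was made from total RNA of 3 replicates each of S2 and SIN3 187HA cells. Per the paper's methods, the authors aligned TruSeq reads to dm3 with Bowtie2/Tophat, estimated levels of RefSeq genes with Cufflinks and compared groups with cuffdiff; versions are not given in the sources used here. The deposited table holds 1 FPKM value per gene and group, pooled over replicates and scaled between libraries by the authors. Its further columns hold the authors' fold change, test statistic, p-value, q-value and call; these were not used. Rows with a failed estimate (3) were left out.

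Log2 differences used log2(FPKM + 0.1), a minimum of 1 FPKM in at least 1 group and a limit of 2-fold (Python 3.11.15, pandas 2.3.3). The named genes are all members, by both values where they reach 1 FPKM, partners in the pairs, other guidance genes past 4-fold at 5 FPKM or more, and markers at 1 FPKM or more (markers below 1 FPKM were chosen after their values were seen). Symbols that the table lacks were matched through RefSeq synonyms. Members and lists were chosen with earlier results of these data known. Depth was estimated from FPKM times transcript length (minus 200 nt) of single-transcript genes longer than 1500 nt, with steps up to 0.03 taken as 1 fragment; lengths came from BDGP6 and no coordinates were taken from it. Intervals are 95% Clopper-Pearson and cover counting error only. Coordinates are dm3, counted from 1.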

Additional observations from a re-analysis of the deposited data

How the results depend on the processing

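The 12 higher and 5 lower members were recounted under each alternative. The higher count ranged from 11 to 14 under other pseudocounts, minimums and scalings against 8.73% to 15.5% of all genes, and was 16 at 1.5-fold (22.6% of all genes) and 8 at 4-fold (7.05%). The lower count was 3 with 1 FPKM asked for in both groups (9.71% of all genes), which removes *Fas3* and *Ten-a*, 6 at 1.5-fold (21.7%) and 2 at 4-fold (5.61%). Counting only genes whose locus overlaps no other, an alternative chosen after seeing the data, left 14 members, of which 6 were higher and 1 lower, against 14.9% and 13.5% of all such genes, with a median log2 difference of 0.75. The median of 0.61 was 0.45 with a pseudocount of 1 and 0.16 with no minimum, where 42 members enter. Among the other guidance genes, 8 instead of 13 were higher with 1 FPKM asked for in both groups. Single members kept their side of the limit except *ed* (-0.83 with a pseudocount of 1, -0.98 centred or rescaled) and *caps* (0.94 with a pseudocount of 1), and 0 of the 17 past the limit changed sign. *Sema-1a* went from -0.01 to 0.02 when centred or rescaled. With 6 or 25 neighbours on each side, 15 members differed from their neighbours as before. No paired analysis was possible because the deposited values are pooled over the replicates, and for the same reason no replicate could be left out.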
